A study of Mus musculus with 8 samples.

Results

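Livers of diet-induced obese (DIO) mice treated with IXA4 or vehicle were examined for 38 genes of cell cycle control and DNA replication, found by their symbols among the 26166 gene symbols of one table of read counts. They comprised 7 genes of G1 control (the cyclins Ccnd1, Ccne1 and Ccne2, the inhibitor Cdkn1a and the transcription factors E2f1, Foxm1 and Mybl2), 10 genes of S phase (Mcm2 to Mcm7, Pcna, Rrm1, Rrm2 and Tyms) and 21 genes of G2 and mitosis, here called mitotic genes. RNA had been isolated from whole livers of 4 IXA4-treated and 4 vehicle-treated mice and sequenced as single-end reads of 50 bp. All animals were male C57BL/6N mice, bought at 14 weeks of age and kept for 3 weeks on a diet with 60% of its kcal as fat before treatment. IXA4, a small molecule that activates the XBP1s arm of IRE1 signaling, was given at 50 mg/kg once a day by intraperitoneal injection for up to 8 weeks, formulated in DMSO, Kolliphor EL, ethanol and saline, and the other mice received vehicle. Both groups thus shared the sex, the strain, the obesity and the daily injections, and libraries of lean mice were not analysed here. Since whole liver was sequenced, fewer cells of a type and less RNA per cell cannot be told apart.

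Cells enter division through G1, when D-type cyclins with CDK4 or CDK6 and E-type cyclins with CDK2 inactivate RB family proteins and release E2F factors, which switch on the genes of DNA replication. The MCM complex loads on origins and unwinds DNA in S phase. A later wave of genes for mitosis is switched on in G2 through B-MYB, FOXM1 and the MuvB complex. Most hepatocytes of the adult liver are quiescent, and its dividing cells can be hepatocytes or cells of the other types that the organ holds.

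The mitotic and S phase genes are known for different promoter elements, so the 250 bases before the annotated start were read from RefSeq (GRCm38.p6) for the 30 of the 38 genes that the table of promoters held, on the strand of the gene and at each start where a gene had several. Both strands were searched for 3 elements: the cell cycle homology region (CHR) that MuvB complexes read (TTTGAA or TTCGAA), the CCAAT box read by NF-Y (CCAAT), and an E2F site (TTTCCCGC, TTTCGCGC, TTTGCCGC or TTTGGCGC). A match is only a match of letters, and sites on opposite strands may overlap. The promoters of Mki67 and Top2a are shown because these were the mitotic genes called higher with IXA4, and that of Mcm6 as an S phase promoter with E2F matches. Capitals mark CHR matches in Mki67 (chr7:135716380-135716629, minus strand) and Top2a (chr11:99024190-99024439, minus strand), and E2F matches in Mcm6 (chr1:128359706-128359955, minus strand).
Mki67: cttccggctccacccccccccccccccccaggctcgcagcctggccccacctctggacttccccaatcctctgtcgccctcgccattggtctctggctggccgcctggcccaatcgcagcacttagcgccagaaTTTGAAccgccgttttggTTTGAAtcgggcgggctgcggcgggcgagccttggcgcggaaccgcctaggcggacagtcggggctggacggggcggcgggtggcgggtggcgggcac
Top2a: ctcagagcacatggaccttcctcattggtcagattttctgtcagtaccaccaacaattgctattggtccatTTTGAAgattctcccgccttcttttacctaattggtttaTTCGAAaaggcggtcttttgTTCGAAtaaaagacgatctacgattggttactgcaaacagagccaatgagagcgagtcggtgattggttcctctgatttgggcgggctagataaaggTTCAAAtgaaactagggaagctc
Mcm6: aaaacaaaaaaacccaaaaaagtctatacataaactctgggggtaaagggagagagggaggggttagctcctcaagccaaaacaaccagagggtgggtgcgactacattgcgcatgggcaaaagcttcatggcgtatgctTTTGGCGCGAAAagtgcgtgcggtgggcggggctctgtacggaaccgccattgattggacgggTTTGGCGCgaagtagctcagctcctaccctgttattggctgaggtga
The Mki67 window held 2 CHR and 3 CCAAT matches, the Top2a window held 4 CHR and 6 CCAAT matches, and the Mcm6 window held 3 E2F matches, of which 2 overlap on opposite strands, beside 2 CCAAT matches. Across the mitotic genes, 9 of 17 (52.9%) had a CHR match, against 2 of 9 S phase genes (22.2%), 0 of 4 G1 control genes and 19.6% of the 27025 gene symbols in the promoter table. A CCAAT box stood in 15 of 17 mitotic (88.2%), 8 of 9 S phase (88.9%) and 0 of 4 G1 control promoters, against 37.5% of all. E2F matches were present in 1 of 17 mitotic (5.88%), 3 of 9 S phase (33.3%) and 0 of 4 G1 control promoters, against 2.16% of all. Of the mitotic genes tested but not called, Ccnb2, Cdk1, Kif11 and Ube2c held CHR matches and Aurka and Birc5 did not. Ccna2 and Kif20a, also tested but not called, were not among the 30 genes searched, and neither was Ccnd1.

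Ccnd1 among the G1 cyclins and Mki67 and Top2a among the mitotic genes rose in IXA4-treated livers, by 3.37-fold, 3.44-fold and 3.92-fold, while none of the 10 S phase genes was called in either direction. Of the 25 members that could be tested, 3 were higher and 0 lower at an adjusted p under 0.05 (edgeR's quasi-likelihood test, adjusted over 12427 genes), where 3.64% of all genes tested were higher and 0.99% were lower. At an unadjusted p under 0.05, 7 members were higher and 0 lower, against 11.1% and 8.03% of all genes. DESeq2, which called more genes, had 5 members higher and 0 lower, with 636 of all genes higher and 256 lower. The median log2 fold change of the tested members was 0.40, against −0.01 over all genes tested. It was 0.15 without IXA4 replicate 1. The remaining 13 members lay under the filter on low counts, which asked for a level of about 0.563 CPM, the count scaled to the size of the library, in at least 4 libraries. Of the 25 tested members, 8 had fewer than 4 vehicle libraries at that level and 4 had fewer than 4 IXA4 libraries there. Mki67 reached it in 4 IXA4 and 2 vehicle libraries and Top2a in 4 and 1, so both passed through the IXA4 libraries. Ccnd1 reached it in all 4 libraries of each group. A member that passed through the group where it was higher had to differ, so the counts and medians over tested members are given as a description. The number called higher also rested on single libraries, since it came to 0 when vehicle replicate 1 was dropped, to 1 when vehicle replicate 2 was and to 4 when IXA4 replicate 3 was.

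**Figure D1:**
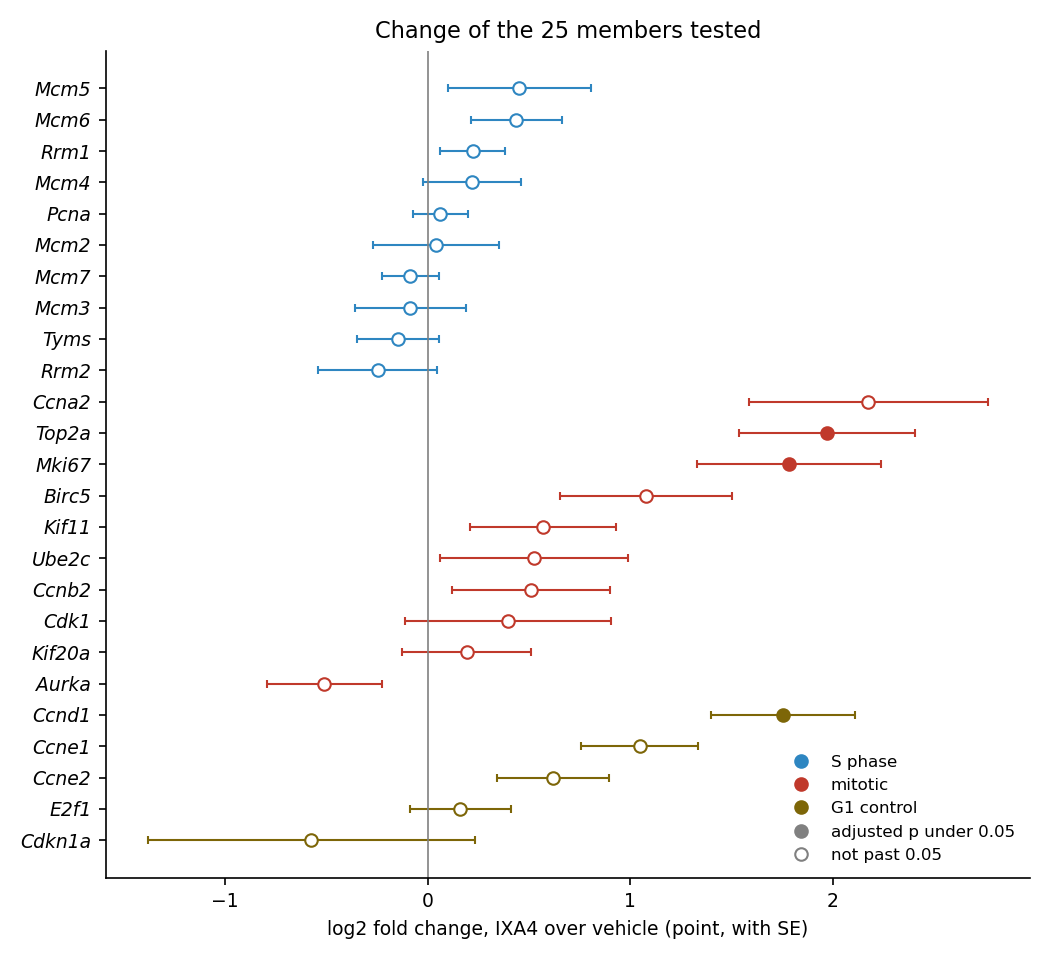
Log2 fold change of IXA4 over vehicle (x axis) for each of the 25 members tested (rows), with bars of 1 standard error and colours for S phase, mitotic and G1 control genes. Filled points mark adjusted p under 0.05, reached by Mki67, Top2a and Ccnd1, and the S phase genes lie between −0.25 and 0.45.

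The libraries held 16986915 to 18390185 counts with IXA4 and 17399049 to 17807573 with vehicle, so depth was close to even. All 38 members were detected, but they are rare transcripts of the liver, and together they took 1035 to 1499 counts in a library with IXA4 and 706 to 1429 with vehicle. Scaled by the length of the annotated exons, the highest members averaged 2.72 RPKM (Pcna), 2.10 RPKM (Cdkn1a) and 1.76 RPKM (Rrm1) over all libraries, whereas Mki67 and Top2a stood at 0.197 and 0.137 RPKM and Ccnb1 was lowest at 0.0149 RPKM. Replicate numbers below name the columns of the count table, which could be tied to a group but not to a single animal. Hepatocyte markers, led by Alb, were abundant in all libraries, with summed levels of 90768 to 120045 CPM with IXA4 and 101824 to 131633 CPM with vehicle.

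Among the genes of G1 control, Ccnd1 encodes cyclin D1, which links growth signals to CDK4 and CDK6. Its level was 8.31, 3.79, 3.09 and 7.12 CPM in IXA4 replicates 1 to 4, against 1.25, 2.00, 2.30 and 1.09 CPM in vehicle replicates 1 to 4. The lowest IXA4 library thus lay above the highest vehicle library, and IXA4 replicates 1 and 4 were the highest of all. The means were 5.58 ± 2.53 CPM with IXA4 and 1.66 ± 0.583 CPM with vehicle (SD, n = 4 each), a log2 fold change of 1.75 (SE 0.35, adjusted p = 0.0168). The call was lost when vehicle replicate 1 was left out (adjusted p = 0.0667) or when vehicle replicate 4 was (adjusted p = 0.0510). Ccnd1 lies at chr7:152115836-152125774 on the minus strand of NCBIM37, and its exons overlap those of Oraov1 on the opposite strand. The sources used here do not say whether counting used the strand, so reads of such partners cannot be told apart.

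Ccne1 and Ccne2 encode the E-type cyclins, partners of CDK2 at the entry to S phase. Ccne1 stood at 1.19, 2.57, 1.66 and 1.59 CPM in the IXA4 libraries, against 0.759, 0.945, 0.847 and 0.819 CPM in the vehicle libraries. The groups did not overlap, and the vehicle libraries were close together, but the difference missed the threshold (log2 fold change 1.05, SE 0.29, adjusted p = 0.0600). It passed without IXA4 replicate 1 (adjusted p = 0.0416), with a filter of 10 counts in every library (adjusted p = 0.0399) and by DESeq2 (adjusted p = 0.0447). Ccne2 had 1.41, 1.34, 1.03 and 1.81 CPM with IXA4, against 1.03, 1.06, 0.726 and 0.819 CPM with vehicle, with overlap between the groups and exons shared with Ints8 on the opposite strand (log2 fold change 0.62, SE 0.28, adjusted p = 0.239), and it passed the threshold only before adjustment. Every IXA4 library lay above every vehicle library for 6 of the 38 members, 4 of them tested (Ccnd1, Ccne1, Top2a and Ccna2), and below for 0, where 7.44% of all genes tested separated upward.

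Cdkn1a, the p53 target that encodes the CDK inhibitor p21, had the largest standard error of the tested members. It was at 2.20, 7.35, 3.78 and 1.75 CPM with IXA4, against 2.22, 5.39, 1.21 and 13.5 CPM with vehicle. Both the highest and the lowest of the 8 values came from vehicle livers, namely replicates 4 and 3, and the difference was smaller than its error (log2 fold change −0.57, SE 0.81, adjusted p = 0.757). Its sign turned when vehicle replicate 4 was left out, with a log2 fold change of 0.35. E2f1, the activator of replication genes, averaged 2.61 ± 0.425 CPM with IXA4 and 2.33 ± 0.764 CPM with vehicle (SD, n = 4 each; log2 fold change 0.16, adjusted p = 0.771). Of the 5 G1 control genes tested, 1 was higher and 0 lower, with a median log2 fold change of 0.62. Foxm1 and Mybl2, which drive the mitotic genes, were too low to test, with 17 counts over the IXA4 libraries and 11 over the vehicle libraries for Foxm1, and 29 with IXA4 and 16 with vehicle for Mybl2.

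**Figure D2:**
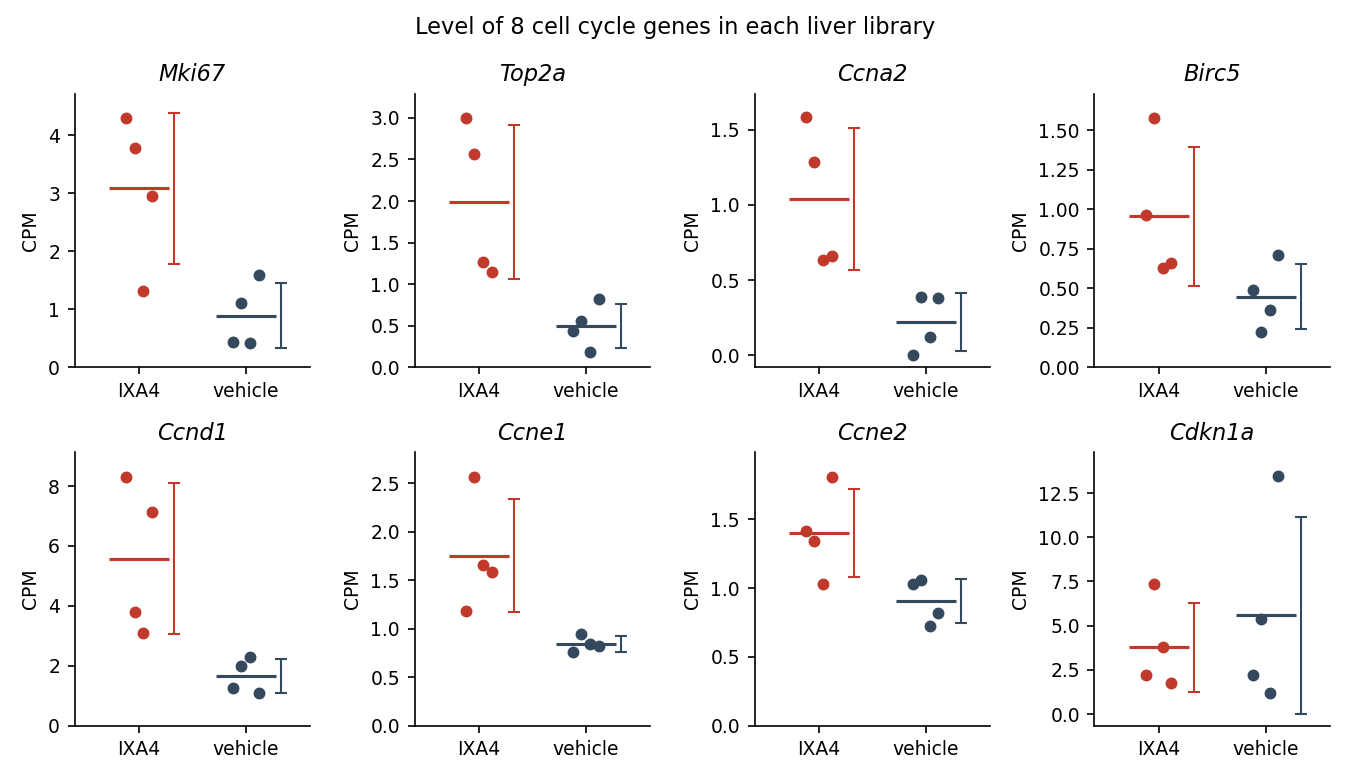
CPM (y axis) of 8 members in each library with IXA4 (red, left) and vehicle (blue, right), with points for libraries in the order of replicates 1 to 4, a line for the mean and a bar for 1 SD. The groups do not overlap for Top2a, Ccna2, Ccnd1 and Ccne1, whereas Cdkn1a ranges from 1.21 to 13.5 CPM within the vehicle group.

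The S phase genes had the highest summed level of the 3 groups of genes, and none of them passed the test. Rrm1, the large subunit of ribonucleotide reductase, which makes deoxynucleotides, stood at 7.80, 9.21, 6.02 and 7.28 CPM with IXA4, against 5.91, 7.11, 5.63 and 7.31 CPM with vehicle (log2 fold change 0.22, SE 0.16, adjusted p = 0.489). The groups overlapped widely. Pcna, the sliding clamp of the replication fork, averaged 6.66 ± 0.488 CPM with IXA4 and 6.37 ± 0.673 CPM with vehicle (SD, n = 4 each), a log2 fold change of 0.06 (SE 0.14). The 6 subunits of the MCM helicase had log2 fold changes of −0.09 (Mcm3), −0.08 (Mcm7), 0.04 (Mcm2), 0.22 (Mcm4), 0.44 (Mcm6) and 0.45 (Mcm5), so that they did not lean one way, and the smallest adjusted p of the S phase genes was 0.314, for Mcm6. Rrm2, the small subunit of ribonucleotide reductase, and Tyms, the thymidylate synthase, had log2 fold changes of −0.25 (SE 0.29) and −0.15 (SE 0.20). Altogether 0 of 10 S phase genes were called in either direction by edgeR or DESeq2, 0 passed an unadjusted p under 0.05, and the median log2 fold change was 0.05. Exons of Mcm7 overlap Ap4m1 and Cops6 on the opposite strand and 2 microRNA genes on its own, and those of Tyms overlap Gm17448.

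Summed over the 10 genes, the S phase level was 43.8, 43.1, 36.2 and 35.3 CPM in the IXA4 libraries, against 37.8, 39.5, 29.6 and 44.1 CPM in the vehicle libraries. The log2 ratio of the means was 0.07. Vehicle replicate 4 held the highest vehicle value for 9 of the 10 genes and vehicle replicate 3 the lowest for 7, so that the spread between vehicle animals was shared by the group. Leaving out vehicle replicate 3 gave a ratio of −0.02, and leaving out vehicle replicate 4 gave 0.15.

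The mitotic genes held the other members that were called. Mki67 encodes Ki-67, the nuclear protein used as a marker of cycling cells, and lies at chr7:142881471-142908062 on the minus strand of NCBIM37. Its level was 4.29, 3.79, 1.32 and 2.96 CPM with IXA4, against 0.433, 1.11, 0.424 and 1.58 CPM with vehicle. IXA4 replicate 3 lay below vehicle replicate 4, while the other 3 IXA4 libraries were above all vehicle libraries. The means were 3.09 ± 1.30 CPM with IXA4 and 0.888 ± 0.564 CPM with vehicle (SD, n = 4 each), a log2 fold change of 1.78 (SE 0.45, adjusted p = 0.0483). This call stood just inside the threshold. It was lost when any of 6 libraries was left out, IXA4 replicates 1, 2 or 4 or vehicle replicates 1, 2 or 3 (adjusted p 0.0824 to 0.138), with scaling by total counts (adjusted p = 0.0669) and without the filter (adjusted p = 0.0547), and DESeq2 kept it (adjusted p = 0.00201).

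Top2a encodes topoisomerase II alpha, which untangles sister chromatids, at chr11:98854257-98885503 on the minus strand of NCBIM37. It had 2.99, 2.57, 1.26 and 1.15 CPM in IXA4 libraries, against 0.433, 0.556, 0.182 and 0.819 CPM in vehicle libraries. The groups did not overlap, and IXA4 replicates 1 and 2 were the highest, as for Mki67. The means of 1.99 ± 0.927 CPM with IXA4 and 0.497 ± 0.265 CPM with vehicle (SD, n = 4 each) gave a log2 fold change of 1.97 (SE 0.43, adjusted p = 0.0214). The call was lost when IXA4 replicate 1 (adjusted p = 0.0550), vehicle replicate 1 (adjusted p = 0.0794) or vehicle replicate 2 (adjusted p = 0.0646) was left out. A small nucleolar RNA gene, SNORA32, lies within its exons.

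Ccna2, the cyclin of S phase and G2, had the largest log2 fold change of the tested members, 2.17 (SE 0.59), with an adjusted p of 0.0575. It was at 1.58, 1.28, 0.630 and 0.657 CPM with IXA4, against 0, 0.389, 0.121 and 0.382 CPM with vehicle. No vehicle library reached the level of the filter, and vehicle replicate 1 had a count of 0, which allows up to 3 counts by counting error alone. Without the filter the adjusted p was 0.0356 and by DESeq2 it was 0.0119. Ccna2 overlaps exons of Exosc9 on the opposite strand. Birc5 encodes survivin, a subunit of the chromosomal passenger complex, and had 0.961, 1.57, 0.630 and 0.657 CPM with IXA4, against 0.488, 0.222, 0.363 and 0.709 CPM with vehicle. Its groups overlapped through vehicle replicate 4 (log2 fold change 1.08, SE 0.42, adjusted p = 0.185), and it passed only before adjustment.

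The other 6 tested mitotic genes did not pass. Log2 fold changes were 0.57 for Kif11, a spindle motor, 0.52 for Ube2c, the E2 enzyme of the anaphase promoting complex, 0.51 for Ccnb2, a B-type cyclin, 0.40 for Cdk1, the mitotic kinase, and 0.19 for Kif20a, a kinesin of cytokinesis. That of Cdk1 was −0.06 without IXA4 replicate 1. Aurka, the kinase of the centrosome, was the 1 mitotic gene with a lower mean, at 0.896 ± 0.175 CPM with IXA4 and 1.28 ± 0.308 CPM with vehicle (SD, n = 4 each; log2 fold change −0.51, adjusted p = 0.358). The mean was thus higher with IXA4 in 20 of 21 mitotic genes, in 6 of 10 S phase genes and in 6 of 7 G1 control genes, tested or not, and 47.9% of all genes tested had a positive log2 fold change. For the 11 mitotic genes under the filter, all with a higher mean, the like share was 58.4%, over symbols under the filter with at least 1 count per library on average. Over the 10 mitotic genes tested, 2 were called higher and 0 lower, and the median log2 fold change was 0.55. Exons of Ube2c overlap Tnnc2 and those of Kif20a overlap Cdc23, each on the opposite strand.

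The other 11 mitotic genes lay under the filter, as did Foxm1 and Mybl2, and these 13 had 9 to 72 counts over all 8 libraries. Cenpf encodes a kinetochore protein and differed most. It had 10, 9, 7 and 5 counts in IXA4 replicates 1 to 4, against 1, 0, 1 and 1 counts in vehicle replicates 1 to 4. With 31 counts over the IXA4 libraries and 3 over the vehicle libraries, the ratio scaled to library size was 10.4, and its exact 95% interval for counting error alone ran from 3.26 to 53.4. Tpx2, which activates Aurora A at the spindle, had 14, 14, 10 and 8 counts with IXA4 and 7, 5, 0 and 2 with vehicle, again without overlap, for a ratio of 3.32 (interval 1.79 to 6.54). These were the 2 of 13 whose groups separated, where 5.16% of all symbols under the filter with at least 1 count per library on average did so.

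Kinases of the spindle checkpoint were among these low genes. Bub1b had 15, 16, 4 and 20 counts with IXA4, against 3, 5, 4 and 5 with vehicle (ratio 3.27, interval 1.87 to 6.01), and IXA4 replicate 3 lay within the vehicle range. Bub1 had 9, 9, 2 and 4 counts with IXA4, against 3, 1, 1 and 0 with vehicle (ratio 4.85, interval 1.81 to 16.3). Aurkb, the kinase of the chromosomal passenger complex, had 16, 1, 2 and 5 counts with IXA4 and 2, 1, 1 and 2 with vehicle, so that its ratio of 4.04 (interval 1.61 to 12.1) rested mainly on IXA4 replicate 1. Prc1, a bundler of the midzone, and Cenpe, a kinetochore motor, had ratios of 2.43 and 2.08. Cdc20, an activator of the anaphase promoting complex, Plk1, a mitotic kinase, and Nusap1, a protein of spindle microtubules, had ratios of 1.52, 1.35 and 1.12, and Ccnb1, the main mitotic cyclin, had 5 counts over the IXA4 libraries and 4 over the vehicle libraries, too few to show a difference. Fitted without the filter over 18996 symbols, Cenpf alone of the 13 was called (log2 fold change 3.18, SE 0.75, adjusted p = 0.0144), and 5 of the 13 were higher at an unadjusted p under 0.05 and 0 lower, against 8.77% of all symbols higher. Exons of Cdc20 overlap Elovl1, those of Nusap1 overlap Oip5 and those of Foxm1 overlap 4933413G19Rik.

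**Figure D3:**
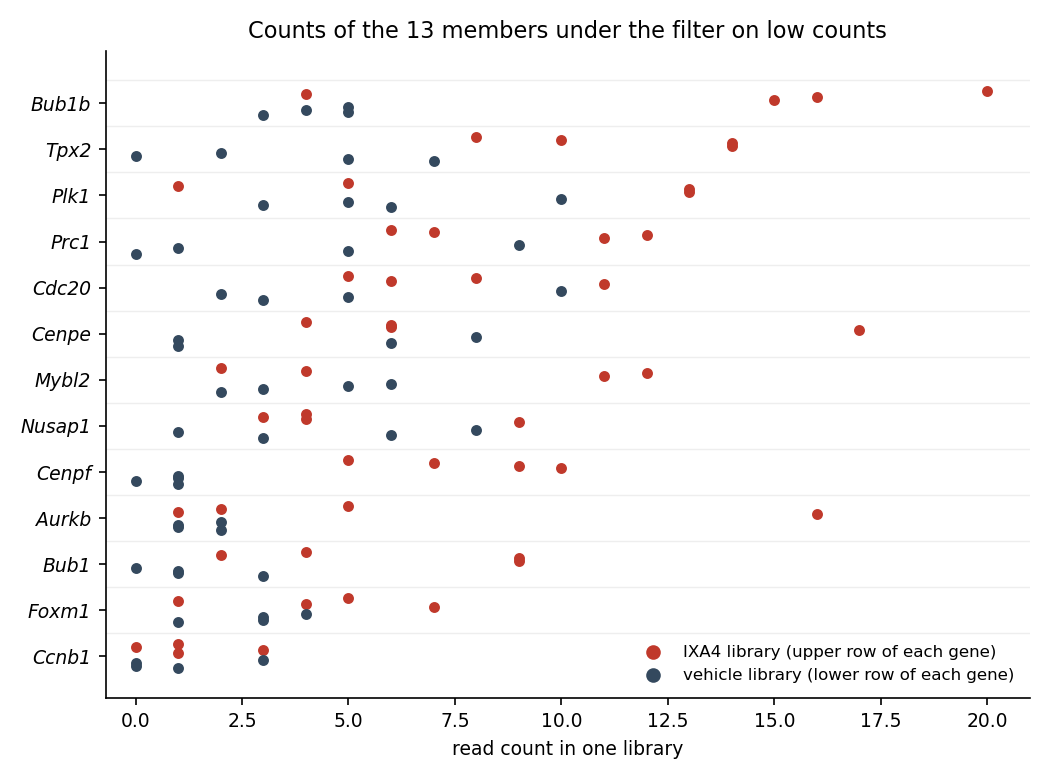
Read counts in each library (x axis) of the 13 members under the filter (rows), with IXA4 libraries in red above vehicle libraries in blue within each row. Cenpf and Tpx2 separate the groups, whereas Ccnb1 has 0 to 3 counts in every library.

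Summed over the 21 mitotic genes, the level was 24.1, 20.8, 11.2 and 13.5 CPM in IXA4 replicates 1 to 4, against 6.83, 8.89, 5.87 and 13.7 CPM in vehicle replicates 1 to 4. The means were 17.4 ± 6.07 CPM with IXA4 and 8.82 ± 3.49 CPM with vehicle (SD, n = 4 each), a log2 ratio of 0.98. IXA4 replicates 1 and 2 accounted for the highest IXA4 value in 10 genes each, and IXA4 replicates 3 and 4 for the lowest in 10 and 9. Vehicle replicate 4 was the highest vehicle library in 14 of 21 genes and lay within the range of the IXA4 sums. The log2 ratio was 0.73 without Mki67 and Top2a, whose removal left 16.8, 14.5, 8.60 and 9.37 CPM with IXA4 and 5.96, 7.22, 5.27 and 11.3 CPM with vehicle. For the sum over all 21 genes, leaving out 1 library at a time gave 0.78 to 1.27. The G1 control genes summed to 16.8, 19.1, 11.9 and 15.2 CPM with IXA4, against 7.48, 11.8, 7.26 and 20.2 CPM with vehicle, a log2 ratio of 0.43 that was 0.83 without vehicle replicate 4, the library with the highest Cdkn1a.

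Markers of cell types were counted in the same libraries, beside 3.64% of all genes tested called higher and 0.99% called lower by edgeR. At an unadjusted p under 0.05 by edgeR, 11.1% of all genes tested were higher and 8.03% lower. Markers of stellate cells and fibroblasts summed to 326 to 573 CPM with IXA4 and 201 to 282 CPM with vehicle. Of these 10 markers, 5 were higher (the matrix genes Col1a1, Col1a2, Col3a1 and Lum, and Acta2) and 1 was lower (Reln). The log2 fold change was negative for 4 of these 10 markers (Dcn, Des, Lrat and Reln). For 2 of them, Des and Reln, every IXA4 library lay below every vehicle library, and the share of all genes that did so was not counted. Cholangiocyte markers summed to 44.5 to 49.7 CPM with IXA4 and 25.9 to 31.1 CPM with vehicle, with 2 of 5 higher (Krt19 and Spp1), and mesothelial markers to 8.93 to 39.4 CPM with IXA4 and 6.99 to 21.1 CPM with vehicle, with 1 of 6 higher (Upk1b). The mesothelial count was 0 when IXA4 replicate 1 or 3 or vehicle replicate 1, 2 or 3 was left out, and the cholangiocyte count was 1 when any library but IXA4 replicate 4 or vehicle replicate 3 was. Sinusoidal endothelial markers summed to 57.6 to 85.0 CPM with IXA4 and 72.9 to 132 CPM with vehicle. The log2 fold change was negative for all 6, and 1 was called lower (Kdr), or 3 when vehicle replicate 3 was left out. By DESeq2 2 were lower, and 3 were at an unadjusted p under 0.05 by edgeR. Of the markers of recruited monocytes and macrophages 1 of 8 was higher (Itgam), with sums of 35.6 to 86.8 CPM with IXA4 and 30.1 to 46.5 CPM with vehicle. Kupffer cell markers summed to 273 to 479 CPM with IXA4 and 230 to 503 CPM with vehicle, and those of T and NK cells to 2.29 to 10.4 CPM with IXA4 and 2.93 to 4.61 CPM with vehicle. Markers of B and plasma cells summed to 2.52 to 3.28 CPM with IXA4 and 1.63 to 3.22 CPM with vehicle, and those of neutrophils to 3.34 to 15.4 CPM with IXA4 and 2.17 to 12.4 CPM with vehicle. These 4 lists held 0 genes called by edgeR or DESeq2 and 0 at an unadjusted p under 0.05, though most lymphocyte markers lay under the filter. Of the 8 hepatocyte markers 0 were called by edgeR, where 0 were higher and 1 lower at an unadjusted p under 0.05 and by DESeq2. Erythroid markers summed to 398 to 1059 CPM with IXA4 and 454 to 2456 CPM with vehicle, and the highest sum was that of vehicle replicate 4. Every marker in these lists had a count in at least 1 library. The part of these cell types in the levels of the cell cycle genes was not tested.

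**Figure D4:**
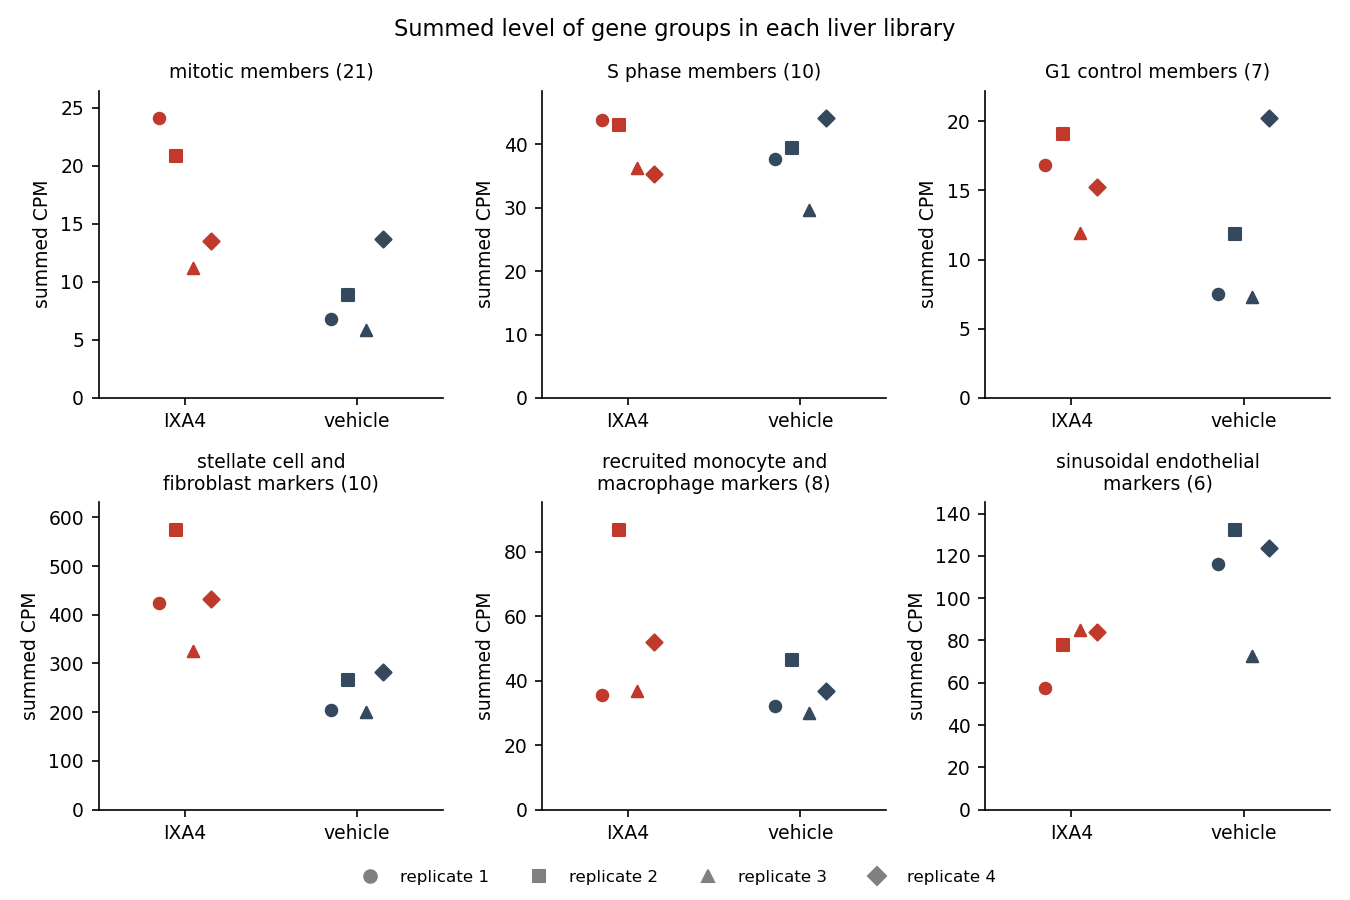
Summed CPM (y axis) of the mitotic, S phase and G1 control members and of 3 lists of cell type markers in each library, with IXA4 left in red, vehicle right in blue and a symbol for each replicate number. The mitotic sums of IXA4 replicates 1 and 2 (24.1 and 20.8 CPM) lie above all vehicle libraries, the S phase sums overlap, and the stellate cell and fibroblast sums do not overlap, although 4 of those 10 markers had a negative log2 fold change.

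Other genes of the same machinery were counted in 12 wider lists, to be read against the 3.64% of all genes called higher, the 0.99% called lower and the median of −0.01. Of 14 tested genes of replication licensing, 0 were higher and 1 lower, Mcm10, which helps to activate the helicase. Mcm10 had 32.9, 24.2, 22.2 and 26.5 CPM with IXA4, against 49.9, 39.6, 53.6 and 37.9 CPM with vehicle (log2 fold change −0.77, SE 0.14, adjusted p = 0.00884). All IXA4 libraries lay below all vehicle libraries, and the median of the list was 0.02. Of 22 tested DNA polymerases and fork factors, 2 were higher and 0 lower, with a median of 0.01. These were Pold2, a subunit of polymerase delta (log2 fold change 0.64, SE 0.12, adjusted p = 0.00953), and Fen1, the flap endonuclease (log2 fold change 1.14, SE 0.26, adjusted p = 0.0252), whose exons overlap Gm10143 and 1810006K21Rik. Fen1 lost its call without IXA4 replicate 3 or without any single vehicle library (adjusted p 0.0511 to 0.0757). Cad, which starts pyrimidine synthesis, was the 1 gene higher of 7 for nucleotide supply, where 0 were lower and the median was −0.19. Its level was 16.4, 14.9, 19.8 and 33.5 CPM with IXA4, against 9.54, 6.89, 7.63 and 7.69 CPM with vehicle (log2 fold change 1.41, SE 0.25, adjusted p = 0.00953).

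Upstream of these genes, Rbl1, which encodes the RB family protein p107, was the 1 gene higher of 13 tested RB, E2F and MuvB factors, with 0 lower and a median of 0.16. It had 2.20, 1.46, 1.72 and 3.45 CPM with IXA4, against 0.813, 0.667, 0.605 and 0.600 CPM with vehicle, with no overlap between the groups (log2 fold change 1.71, SE 0.32, adjusted p = 0.00879). Among 4 tested CDK inhibitors 0 were called by edgeR, 1 higher and 0 lower at an unadjusted p under 0.05 and by DESeq2, and the median was 0.50. The most abundant, Cdkn1b for p27, had 8.48, 6.76, 8.37 and 9.42 CPM with IXA4 and 5.36, 5.50, 6.60 and 5.08 CPM with vehicle. Its log2 fold change was 0.55 (SE 0.15, adjusted p = 0.0527). It passed without IXA4 replicate 2 (adjusted p = 0.0215), without vehicle replicate 3 (adjusted p = 0.0439), with 10 counts in every library (adjusted p = 0.0475) and by DESeq2 (adjusted p = 0.0268). Of 8 other cyclins, CDKs and their activators 0 were called by edgeR, 1 higher and 1 lower at an unadjusted p under 0.05 and 0 higher and 1 lower by DESeq2. Cdk4, the kinase partner of cyclin D1, was its most abundant gene, at 36.4 ± 0.794 CPM with IXA4 and 34.7 ± 1.55 CPM with vehicle (SD, n = 4 each; log2 fold change 0.07), and its exons overlap Tspan31 on the opposite strand. The median of the list was −0.01. Of 17 tested p53 targets other than Cdkn1a, 0 were called by edgeR or DESeq2 and 2 were higher and 1 lower at an unadjusted p under 0.05, with a median of −0.09 and a log2 fold change of −0.21 for Ei24, the most abundant.

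Mitotic lists beyond the members had few genes above the filter. Kinetochore and spindle checkpoint genes had 11 of 22 tested, spindle motors and cytokinesis genes 4 of 20, and condensin, cohesin and separase genes 12 of 15, with medians of 0.16, 0.54 and 0.16. In none of the 3 lists was a gene called by edgeR with the filter or by DESeq2, and at an unadjusted p under 0.05 they held 0, 1 and 2 genes higher and 0, 0 and 1 lower. Their most abundant genes were Zwint (log2 fold change −0.11), Tacc3 (0.23) and Smc1a (0.26, adjusted p = 0.145). Fitted without the filter, 2 genes under it were called higher and are named after their values were seen. Hmmr, a spindle protein, had 12, 4, 3 and 1 counts with IXA4, against 0 counts in each vehicle library (adjusted p = 0.0254). Espl1, the separase, had 11, 15, 4 and 12 counts with IXA4, against 1, 4, 0 and 1 with vehicle (adjusted p = 0.0225). Of the 15 genes for spindle motors and cytokinesis under the filter with at least 1 count per library on average, 14 had a higher mean with IXA4, where 58.4% of all such symbols did. Immediate early genes had 0 of 8 called by edgeR, 2 higher and 0 lower at an unadjusted p under 0.05 and 1 higher by DESeq2, with a median of 0.73. Junb, an AP-1 subunit and the most abundant of them, had 29.6, 11.5, 143 and 49.9 CPM with IXA4, against 12.0, 11.6, 18.6 and 13.7 CPM with vehicle, so that IXA4 replicate 3, the library with the lowest mitotic sum of its group, stood highest (log2 fold change 2.07, SE 0.77, adjusted p = 0.212). Ligands and receptors of hepatocyte growth had 0 of 4 tested genes called by edgeR or DESeq2 and 0 at an unadjusted p under 0.05, with a median of −0.03, and Egfr, the most abundant, had 110, 44.5, 160 and 277 CPM with IXA4, against 77.5, 84.7, 81.4 and 60.5 CPM with vehicle (log2 fold change 0.96, SE 0.51, adjusted p = 0.375).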

How the data were processed

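RNA-seq of 8 mouse livers (4 IXA4, 4 vehicle) was used. The authors aligned single-end reads of 50 bp to mouse NCBI build 37.2 with DNAstar Lasergene SeqManPro, quantified them with QSeq in ArrayStar, and deposited whole-number counts per gene symbol. The sources used here do not name the annotation release, the strand setting or the treatment of multi-mapped reads. The authors also deposited their own DESeq comparison (group means, fold changes and p-values), which was not used.

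Columns were assigned to groups by their headings. The filter on low counts was filterByExpr with a minimum count of 10 and a minimum total of 15. After TMM scaling, the quasi-likelihood F test of edgeR (robust, no covariate) compared IXA4 with vehicle, with Benjamini-Hochberg adjustment over 12427 genes and a threshold of 0.05. CPM are counts over the TMM-scaled library size, and standard errors are those implied by the F statistic. Each p-value weighs the difference between groups against the spread between animals, 4 in each group, estimated with information shared across genes. Intervals on sums of counts cover counting error only. The method was tested on simulated counts drawn from the means and dispersions of the genes kept, with changes put into random genes. That was not a check of calls for genes that passed the filter through a single group. The fits ran in R 4.3.3 with edgeR 4.0.16 and, as an alternative, DESeq2 1.42.0.

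The members and all gene lists were chosen with earlier results of these data known. Values in every library are given for members past an adjusted or unadjusted p of 0.05, for the most abundant member of each group, and for Mki67 and Cdkn1a. From each wider list up to 4 called genes of smallest p are named, or else the most abundant. Other genes were named after their values were seen. Gene positions come from a GENCODE annotation of NCBIM37 matched by symbol, which is not the authors' annotation, and promoters from RefSeq on GRCm38.p6. Alternatives were DESeq2's size factors, total counts, no filter, 10 counts in every library, DESeq2, each library left out, the mean of log2 CPM for the sums and, chosen after seeing the data, the mitotic sum without Mki67 and Top2a.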

Additional observations from a re-analysis of the deposited data

Results flagged for a closer look

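Within the 4 vehicle libraries, 2 members had 1 library set apart from the other 3, judged by its gap to the nearest library as a share of the whole range of the group. For Cenpf, vehicle replicate 2 with a count of 0 was lowest, at a share of 0.895, but the other libraries had 1 count each, so the gap is a single read. For Ube2c, vehicle replicate 4 was highest with 0.928 CPM, against 0.278 to 0.325 CPM in the other vehicle libraries, at a share of 0.927. Chance alone marks about 1 in 20 such groups.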

How the results depend on the processing

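Across the alternatives tried, 0 members were called lower, and no called value changed sign. Of the values not called, those of Cdkn1a, Cdk1, Mcm2, Mcm3, Tacc3 and the S phase sum changed sign when some single library was left out. By DESeq2, 5 members were higher and 256 of all genes were lower, against 3 and 123 by edgeR, with 636 against 452 of all genes higher. Members called higher numbered 3 with DESeq2's size factors, 2 with total counts, 4 without the filter and 2 with 10 counts in every library. Leaving out 1 library at a time gave 0 to 4 members higher, 261 to 613 genes higher and 43 to 162 genes lower over all genes, with the lowest of all 3 ranges without vehicle replicate 1. It gave medians of the members of 0.15 to 0.55, and log2 ratios of 0.78 to 1.27 for the mitotic sum, −0.02 to 0.15 for the S phase sum and 0.27 to 0.83 for the G1 control sum. The median of the members was 0.17 with 10 counts in every library. That filter took Mki67, Top2a, Ccna2 and other rare mitotic genes out of the test. The 2 members called under it were Ccnd1 and Ccne1. The mean of log2 CPM gave 0.84 for the mitotic and 0.56 for the G1 control genes. Wider lists with 0 genes called by edgeR held at most 1 when a library was left out, and without the filter 4 of them held 1. No paired analysis was possible because the columns carry no animal and the groups share fewer than 2 replicate numbers in the labels. Depth limits the 13 members under the filter, where 0 to 20 counts a library leave intervals of several fold.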
